A study of Homo sapiens with 8 samples.

Results

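The aminoacyl-tRNA synthetases are the enzymes that join each amino acid to its tRNA. Their messages were followed here in human hepatic stellate cells depleted of LARP6, a La-related protein described as binding collagen messages. The rule that picked the genes uses names and no measured value, though it was set with earlier results of these data known. It takes all rows whose gene name is 1 letter followed by ARS, ARS1 or ARS2, plus EPRS1, FARSA, FARSB and the scaffold proteins AIMP1 and AIMP2. This gave 39 genes of the 12109 rows in the authors' deposited table, each on 1 row. Of these, 20 are cytosolic only, 17 are mitochondrial only, and 2, GARS1 and KARS1, supply both compartments and are counted in both groups below (22 cytosolic, 19 mitochondrial). The cytosolic genes cover all 20 amino acids and the mitochondrial ones 19, since mitochondria charge their glutamine tRNA through the glutamate enzyme EARS2 and an amidotransferase.

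The study made 8 libraries in 4 groups of 2. Both RNA-seq and ribosome profiling were done on cells labelled WT that received the silencing RNA dsi-control, and on cells labelled LARP6 kd that received dsiLARP6. All groups were hepatic stellate cells, the matrix-producing cells of the injured liver, grown in serum-containing DMEM, and no TGF-beta treatment is named for these libraries. The labels give the cells as a cell line called HSCs, do not say whether they came from 1 donor, and do not say whether replicates were separate cultures, so p-values may measure only technical spread. Ribosome profiling sequences the RNA that ribosomes protect from nuclease, and translation efficiency is the ratio of these footprints to RNA. The authors' deposited table holds the log2 change of this ratio in the knockdown over the control, the log2 efficiency in the knockdown and p-values. Control levels below are not in it and were derived as the knockdown level minus the second method's log2 change, so their difference from the knockdown level can depart slightly from the final change. The table has no value per library, so depth is unknown and no spread between replicates can stand beside any value. Because the efficiency is a ratio from bulk cells, a change in every cell and a larger change in some of them cannot be told apart, nor can fewer cells of a type and less RNA per cell.

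Synthetases work in 2 settings. In the cytosol most charge tRNA for general protein synthesis, and several are held with AIMP1, AIMP2 and EEF1E1 in a large multi-synthetase complex. A separate set, encoded in the nucleus and imported, charges the tRNAs of mitochondria. Collagen is unusually rich in glycine and proline, and the prolyl activity of EPRS1 is the target of halofuginone, a compound studied as an antifibrotic. When amino acids run short, uncharged tRNA activates the kinase EIF2AK4 (GCN2), translation of the transcription factor ATF4 rises, and ATF4 in turn drives many cytosolic synthetase genes through an element with the core TGATGNAA.

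The promoters of the family were searched for this element, because ATF4 is among the genes of the charging pathway whose efficiency changed in these cells (below). RefSeq promoters (GRCh38.p14, 250 bases before to 50 after each start) were matched by symbol for 32 of the 39 genes. AARS2, LARS1, VARS1, VARS2 and YARS1 were among those with no match. TGATGNAA, on either strand, stood in the promoters of 8 of the 32 genes, against 1217 of all 27305 genes with a promoter (4.46%) and 251 of the 8982 genes that are also in the efficiency table (2.79%). By promoter, it was in 8 of the family's 44 and in 3.62% of all 35116. Among cytosolic genes 7 of 18 held it and among mitochondrial ones 2 of 16, with GARS1 counted in both. Apart from GARS1, the mitochondrial match was YARS2. The 8 matches are printed 5′ to 3′ on the gene's strand with 10 bases on each side and the element in capitals, so an element that faces the other way appears as TTNCATCA.
IARS1, chr9:92293693-92293720, minus strand: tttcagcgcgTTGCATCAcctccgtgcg
NARS1, chr18:57621805-57621832, minus strand: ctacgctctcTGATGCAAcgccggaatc
CARS1, chr11:3057408-3057435, minus strand: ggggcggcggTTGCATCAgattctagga
MARS1, chr12:57488054-57488081, plus strand: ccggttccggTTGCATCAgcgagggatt
TARS1, chr5:33440957-33440984, plus strand: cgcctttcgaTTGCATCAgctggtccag
AARS1, chr16:70289676-70289703, minus strand: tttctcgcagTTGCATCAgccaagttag
GARS1, chr7:30594835-30594862, plus strand: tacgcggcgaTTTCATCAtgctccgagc
YARS2, chr12:32756077-32756104, minus strand: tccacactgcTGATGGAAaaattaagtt
In 6 of them the variable base is the same, giving TGATGCAA; GARS1 has TGATGAAA and YARS2 TGATGGAA. In IARS1, NARS1, CARS1, MARS1 and TARS1 the element lies at or close to a RefSeq start of the gene, between 13 bases before it (IARS1) and 22 bases after it (NARS1), whereas in AARS1 and YARS2 it lies 187 and 197 bases before. For TARS1 and GARS1, which have 2 promoters each in the table, the start meant is the more downstream one. A match is a string of letters and no measure of binding. The RNA levels that a promoter would set were not analysed here.

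No synthetase or scaffold passed the threshold in the authors' comparison. In the authors' deposited table, 0 of the 39 genes had an adjusted p under 0.05, against a background of 2.2% of all rows (266 of 12109); 1.07% of rows were called higher and 1.12% lower. An unadjusted p under 0.05 was reached by 2 of the 39 in the authors' deposited table (5.13%), IARS1 and NARS1, and by 10.3% of all rows. Of the authors' 2 methods, the first taken alone and adjusted over all rows called 1 member, IARS1, against 3.77% of rows, and the second called 0 against 2.82%. The changes were small. Their median was 0.07 on the log2 scale, with 24 genes above 0 and 15 below, against 0.02 and 50.8% above 0 for all rows of the authors' deposited table. The quartiles of the family were −0.12 and 0.26, while those of all rows were −0.32 and 0.34. Changes of at least 2-fold were listed for 1 of the 39 genes, PARS2 (2.56%), and for 10.6% of all rows per the authors' deposited table.

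**Figure D1:**
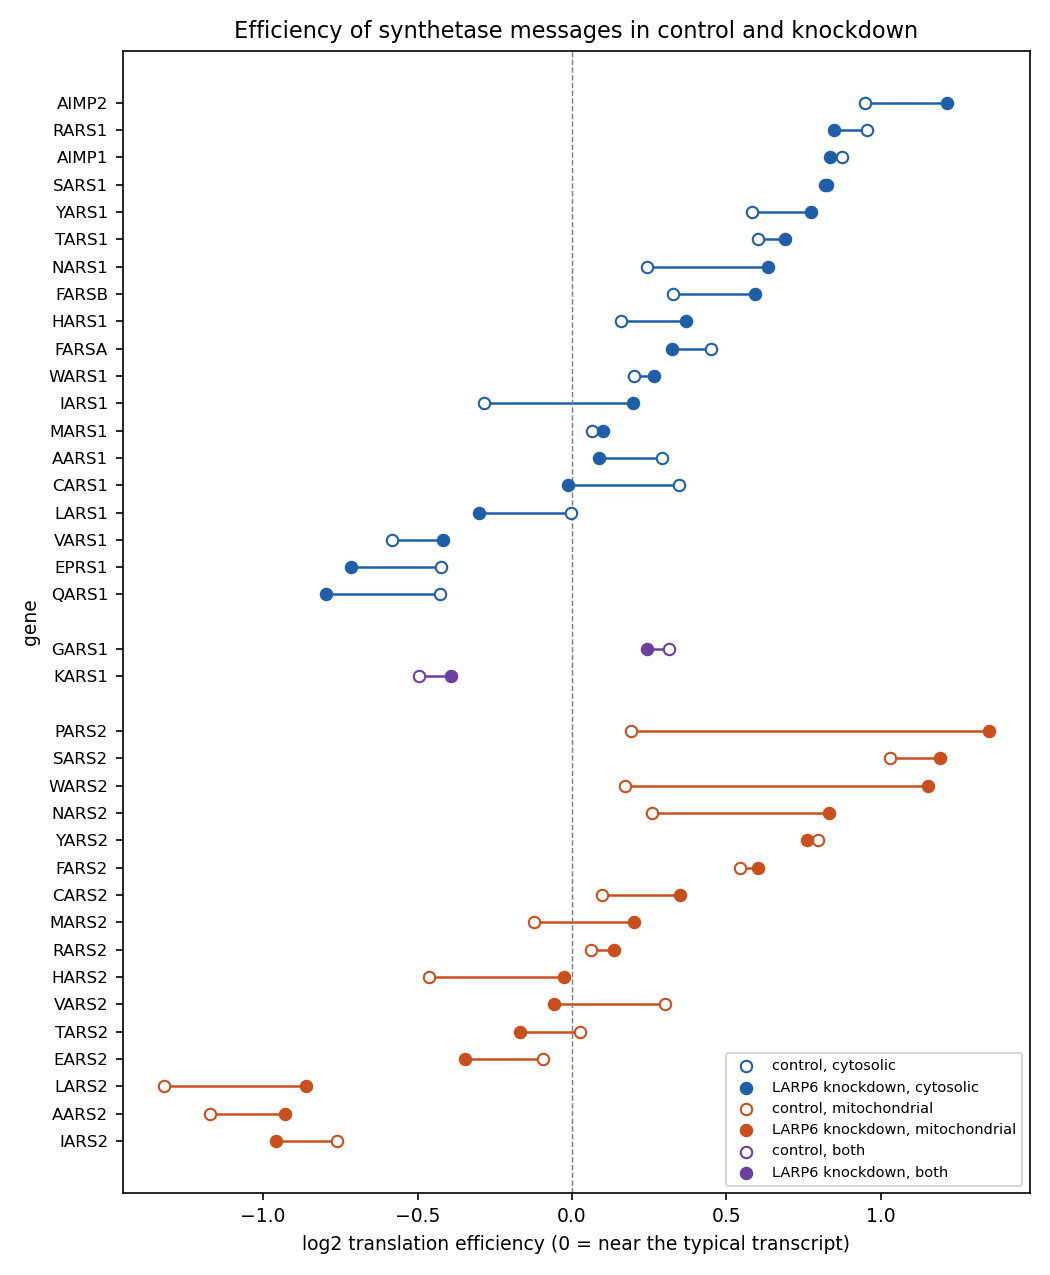
Log2 translation efficiency of 37 of the 39 genes (horizontal axis; 0 is near the median of all rows) in control cells (open circles, derived) and LARP6 knockdown cells (filled circles, deposited), grouped as cytosolic, both and mitochondrial. The longest lines, a measure of the size of the change, belong to the mitochondrial PARS2 and WARS2, and no gene was called at an adjusted p of 0.05.

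IARS1, the cytosolic isoleucyl enzyme and a subunit of the multi-synthetase complex (chromosome 9, 92210207 to 92293697, GRCh38.p14), had the lowest p of the family. Its log2 efficiency was −0.28 in the control, as derived, and 0.20 in the knockdown. The log2 change was 0.48 (1.40-fold higher; unadjusted p = 0.0033, adjusted p = 0.114) per the authors' deposited table. The first method alone gave IARS1 an adjusted p of 0.0386, so its call turns on which of the authors' p-values is used. NARS1, the asparaginyl enzyme (chromosome 18, 57600656 to 57621836), came next, with a derived control level of 0.24, a knockdown level of 0.63 and a change of 0.39 (1.31-fold higher; unadjusted p = 0.0148, adjusted p = 0.272) per the authors' deposited table. Both genes carry TGATGCAA beside their start, as does CARS1, the cysteinyl enzyme (chromosome 11, 3000929 to 3057423). CARS1 had a level of 0.35 in the control, as derived, and −0.01 in the knockdown. Its change was −0.36 (unadjusted p = 0.0776, adjusted p = 0.594) per the authors' deposited table. Over the 8 genes with the element the changes in the authors' deposited table ran from −0.36 to 0.48 with a median of −0.002, and over the 24 searched without it from −0.37 to 1.09 with a median of 0.09. The sets also differ in compartment, since 7 of 18 cytosolic and 2 of 16 mitochondrial genes searched held the element. Element and compartment therefore cannot be told apart here. Efficiency is a ratio to RNA, so these values cannot show what the element does to RNA levels, and its role was not tested.

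**Figure D2:**
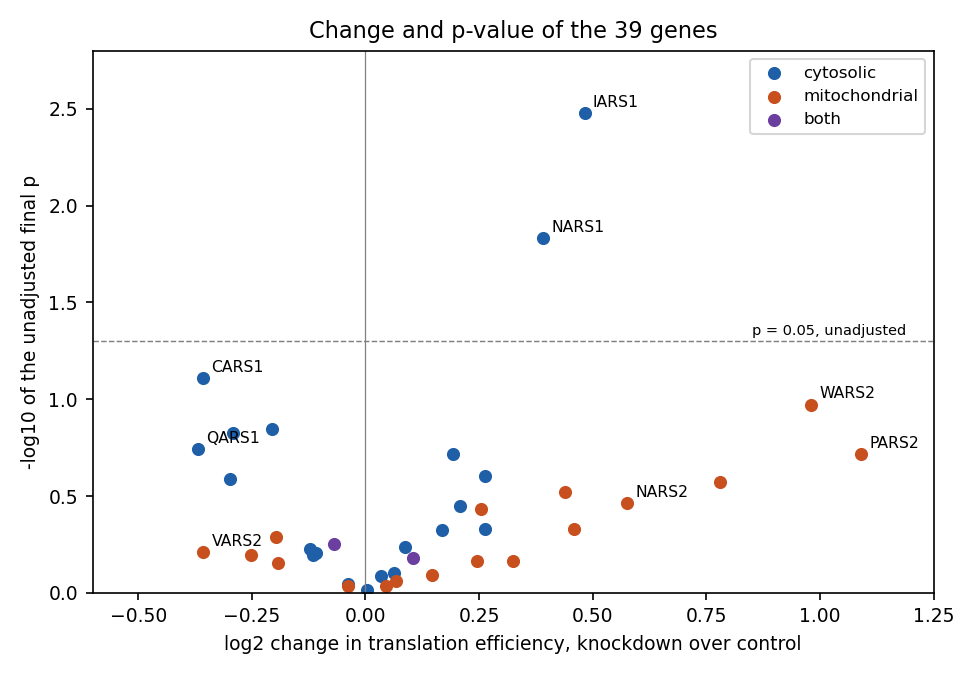
Log2 change in efficiency (horizontal axis) against −log10 of the authors' unadjusted final p (vertical axis) for the 39 genes, coloured by compartment. IARS1 and NARS1 stand above the dashed line at an unadjusted p of 0.05, while the genes with the largest changes, PARS2 and WARS2, stand below it.

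Subunits of the multi-synthetase complex were spread around 0. Of the 11 genes listed for it, including EEF1E1, all were in the authors' deposited table, 0 were called, 4 lay above 0 and 7 below, and the median change was −0.11. Apart from IARS1, those above 0 were the scaffold AIMP2 at 0.26 (adjusted p = 0.85), the lysyl enzyme KARS1 at 0.10 and the methionyl enzyme MARS1 at 0.03 per the authors' deposited table. The lowest was QARS1, the glutaminyl enzyme (chromosome 3, 49095932 to 49104757), whose log2 level went from −0.43 in the control, as derived, to −0.80 in the knockdown, a change of −0.37 (unadjusted p = 0.181, adjusted p = 0.791) per the authors' deposited table. LARS1, the leucyl enzyme, which also takes part in leucine sensing by mTORC1, had a derived control level of −0.003, a knockdown level of −0.30 and a change of −0.30 (unadjusted p = 0.257, adjusted p = 0.856) per the authors' deposited table. EPRS1, the fused glutamyl and prolyl enzyme (chromosome 1, 219968600 to 220046505), had a change of −0.29 (unadjusted p = 0.149, adjusted p = 0.753) per the authors' deposited table. EEF1E1, a scaffold also known as AIMP3, was at −0.27, RARS1 (arginyl) at −0.11 and the scaffold AIMP1 at −0.04 per the authors' deposited table. Subunits of this complex held both the lowest and the highest change among the 22 cytosolic genes that the rule took. TARS3, which its name keeps out of the rule, is in a related list. It was at −0.38 (adjusted p = 0.97) per the authors' deposited table, slightly below QARS1.

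The 12 cytosolic genes outside the complex had a median change of 0.07, with 8 above 0, per the authors' deposited table. Besides NARS1, the changes above 0.1 in the authors' deposited table were those of FARSB at 0.26, HARS1 (histidyl) at 0.21, YARS1 (tyrosyl) at 0.19 and VARS1 (valyl) at 0.17. FARSA and FARSB are the 2 kinds of subunit of the phenylalanyl enzyme. FARSA was at −0.12 (adjusted p = 0.96) and FARSB had an adjusted p of 0.935 per the authors' deposited table. AARS1, the alanyl enzyme, was at −0.20 (unadjusted p = 0.143, adjusted p = 0.745) per the authors' deposited table. TARS1 (threonyl) at 0.09, WARS1 (tryptophanyl, an interferon-induced gene) at 0.06 and SARS1 (seryl) at 0.003 were close to 0 per the authors' deposited table.

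GARS1 and KARS1 each serve the cytosol and the mitochondrion from a single gene, and neither was called. GARS1, the glycyl enzyme (chromosome 7, 30594735 to 30634033), had a derived control level of 0.31, a knockdown level of 0.24 and a change of −0.07 (adjusted p = 0.954) per the authors' deposited table. KARS1 (chromosome 16, 75627724 to 75647665) had a derived control level of −0.50, a knockdown level of −0.39 and an adjusted p of 0.97 per the authors' deposited table. The 2 forms of GARS1 are known to start at different codons of the same message, so a single efficiency cannot separate them. Both starts were read from the GENCODE 29 transcript of the row and are printed 5′ to 3′ with the start codon in capitals. The second is the next in-frame ATG, at codon 55.
GARS1 codon 1, mitochondrial form: cgcaggctcATGccc
GARS1 codon 55, cytosolic form: cggagcagcATGgac
The usual favoured surroundings of a start are a purine 3 bases before it and G directly after it. The second GARS1 start has both and the first has neither. Across the family, most annotated starts were favoured at the first of these positions, and 33 of 37 matched transcripts had A or G there (89.2%; 85.5% of all protein-coding rows that start with ATG). The 2 forms of KARS1 differ by splicing. The row in the authors' deposited table is the transcript with 597 codons, the cytosolic form, and the 625-codon transcript has no row; the sources used here do not say how reads shared by both were assigned.

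Mitochondrial synthetases had a wider range of changes than cytosolic ones, and none was called. The 19 genes had a median change of 0.15, with 13 above 0 and 6 below, and ran from −0.36 to 1.09 per the authors' deposited table. The 22 cytosolic genes had a median of 0.02, with 12 above 0 and 10 below, and ran from −0.37 to 0.48 per the same table. The interquartile range was 0.50 for mitochondrial and 0.31 for cytosolic genes, both narrower than the 0.65 of all rows, per the authors' deposited table. The lowest unadjusted p was 0.107 for mitochondrial and 0.0033 for cytosolic genes per the same table. Members are not replicates, so the difference between the 2 groups was not tested. Without GARS1 and KARS1 the mitochondrial median was 0.25.

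**Figure D3:**
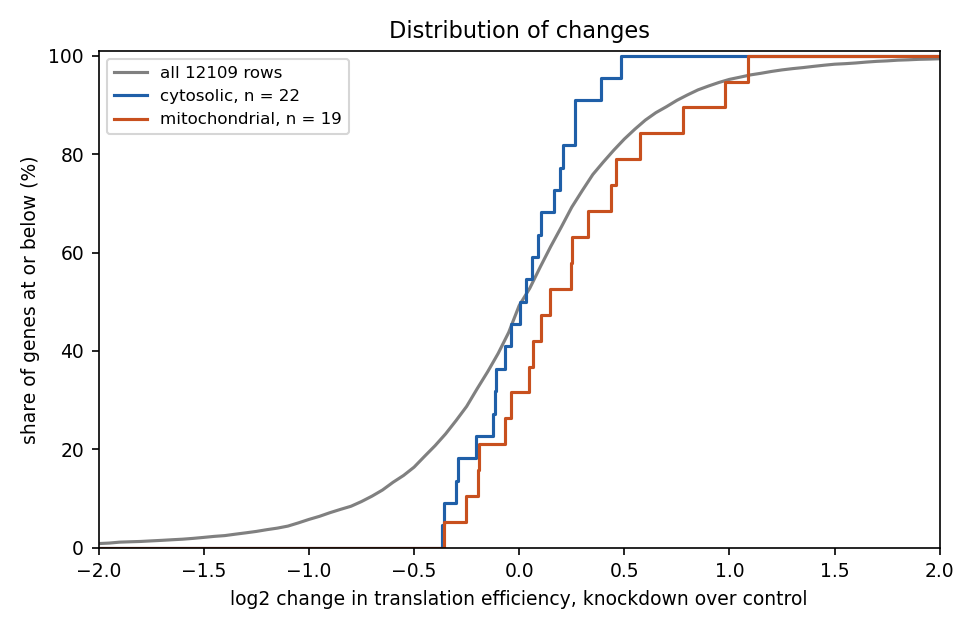
Share of genes (vertical axis, %) with a log2 change at or below the value on the horizontal axis, for all 12109 rows (grey), the 22 cytosolic (blue) and the 19 mitochondrial genes (orange); GARS1 and KARS1 are in both. The blue line climbs most steeply around 0, and the orange line lies to the right of it over most of the range above −0.3.

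The highest changes of the family belonged to mitochondrial enzymes. PARS2, the prolyl enzyme (chromosome 1, 54756898 to 54764523), had a knockdown log2 level of 1.35 and a final change of 1.09 (2.13-fold; unadjusted p = 0.192, adjusted p = 0.799) per the authors' deposited table. Its final change is that of the first method. The second method, from which control levels are derived, gave 1.16 per the authors' deposited table, and so a control level of 0.19. WARS2, the tryptophanyl enzyme (chromosome 1, 119031216 to 119140672), went from a derived control level of 0.17 to 1.15, a change of 0.98 (1.97-fold; unadjusted p = 0.107, adjusted p = 0.669) per the authors' deposited table. NARS2, the asparaginyl enzyme (chromosome 11, 78435968 to 78574864), had levels of 0.26 (control, derived) and 0.83 (knockdown) and a change of 0.58 (adjusted p = 0.898) per the authors' deposited table. These changes are larger than that of IARS1 but have larger p-values. Among all rows, PARS2 stood at percentile 96.0 of change and WARS2 at 94.9 per the authors' deposited table.

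The other mitochondrial genes lay closer to 0. LARS2 at 0.46, HARS2 at 0.44, MARS2 at 0.33, CARS2 at 0.25 and AARS2 at 0.25 had adjusted p-values between 0.877 and 0.972 per the authors' deposited table. SARS2 at 0.15, RARS2 at 0.07 and FARS2 at 0.05 came next, and YARS2 at −0.04, TARS2 at −0.19, IARS2 at −0.20, EARS2 at −0.25 and VARS2 at −0.36 lay below 0 per the authors' deposited table. VARS2 (chromosome 6, 30914238 to 30926459) went from 0.30 in the control, as derived, to −0.06 in the knockdown (adjusted p = 0.963) per the authors' deposited table.

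For 14 amino acids 1 cytosolic gene can be set against 1 mitochondrial gene. The mitochondrial change was the higher in 10 of the 14 pairs and the lower in 4, with a median difference of 0.21 on the log2 scale, per the authors' deposited table. The tryptophanyl pair differed most in that direction, WARS2 lying 0.92 above WARS1, per the authors' deposited table. The isoleucyl pair went the other way, with IARS2 at −0.20 and IARS1 at 0.48 per the authors' deposited table. The valyl, threonyl and tyrosyl pairs were the other three with a lower mitochondrial change: VARS2 −0.36 and VARS1 0.17, TARS2 −0.19 and TARS1 0.09, YARS2 −0.04 and YARS1 0.19 per the authors' deposited table. The asparaginyl pair was alike in sign, at 0.58 for NARS2 and 0.39 for NARS1, and so was the histidyl pair, at 0.44 for HARS2 and 0.21 for HARS1, per the authors' deposited table. HARS1 and HARS2 are neighbours on chromosome 5 and start 85 bases apart on opposite strands (RefSeq, GRCh38.p14). None of the 17 cytosolic and mitochondrial combinations with matched transcripts, HARS1 and HARS2 included, shared an identical stretch of 28 bases of coding sequence.

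**Figure D4:**
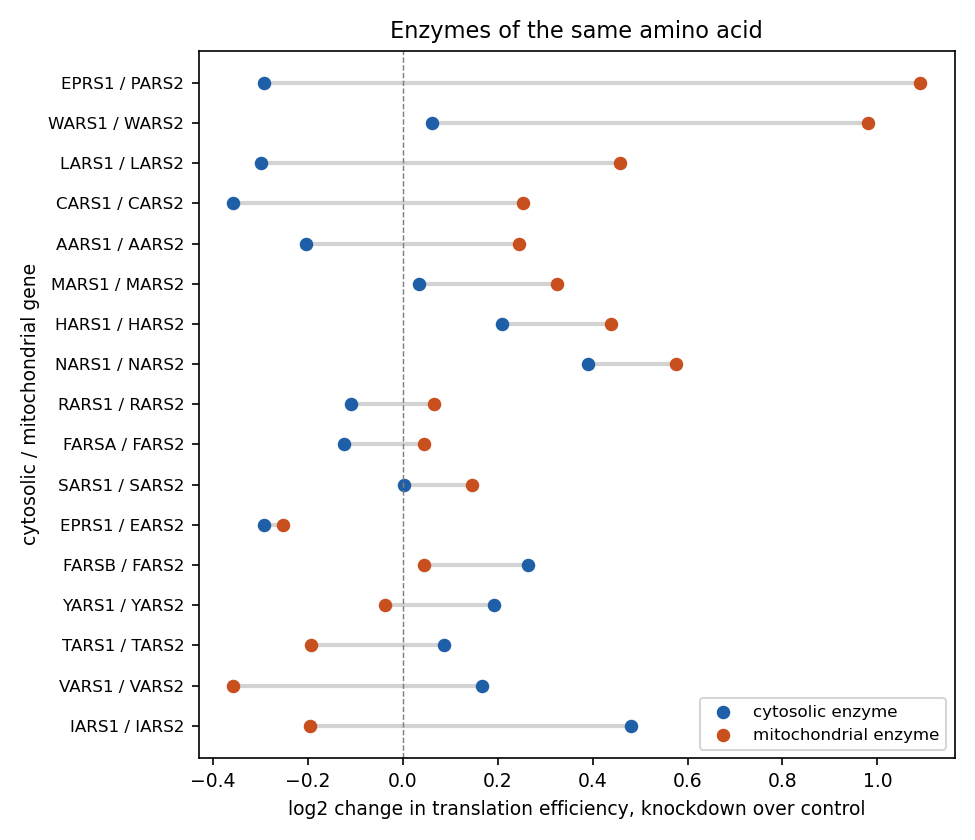
Log2 change in efficiency of the cytosolic (blue) and mitochondrial (orange) enzyme for the same amino acid, sorted by their difference, for 17 combinations; EPRS1 and FARS2 appear 2 times because EPRS1 charges 2 amino acids and the cytosolic phenylalanyl enzyme has 2 subunits. The isoleucyl pair at the bottom and the tryptophanyl pair near the top differ in opposite directions.

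As a level, the efficiency of synthetase messages was moderate and slightly above the median of all rows. Of the 12109 rows, 10560 matched a protein-coding transcript, and no median over those alone was taken. The derived control log2 efficiency had a median of 0.19 in the family and 0.002 over all rows, and 26 of the 39 genes lay above 0 (66.7%; 50.1% of all rows). The knockdown log2 efficiency had a median of 0.24, with 25 genes above 0 (64.1%; 50.3% of all rows), per the authors' deposited table. Cytosolic genes had a median knockdown level of 0.30 and mitochondrial genes of 0.14 per the authors' deposited table, and the derived control medians were 0.30 and 0.06. In the 14 pairs the mitochondrial gene had the lower knockdown level in 8 and the higher in 6, and the lower derived control level in 10. Among the lowest control levels were those of LARS2 (−1.32) and AARS2 (−1.17), and among the highest those of SARS2 (1.03), RARS1 (0.96) and AIMP2 (0.95). Efficiency is footprints over RNA of the same transcript, but the program that computed it is not given. The levels also varied with coding length (next paragraph), so genes of different length are set side by side only as a description. Neighbours in this order cannot be separated, since no spread is given.

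Synthetase messages with longer coding sequences tended to have the lower efficiency. Across the 37 genes whose row matched a GENCODE 29 transcript, coding length ran from 960 bases (AIMP2) to 4536 (EPRS1), and its Spearman correlation with the knockdown level was −0.72; across all 10560 protein-coding rows it was −0.40. With the derived control level it was −0.53 in the family and −0.39 in all protein-coding rows. These are correlations across genes measured in the same libraries, which are not independent replicates, and are given as a description. AIMP1 and VARS2 did not match and are left out.

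The surroundings of the start codon are shown for genes among the highest and lowest changes and for IARS1 and NARS1, because they are read by the ribosome at initiation. VARS2, among the 4 lowest, matched no transcript. Each line runs from 9 bases before the start codon to 3 after it, with the start codon in capitals.
PARS2: cagggtgtcATGgaa
WARS2: cttctcaagATGgcg
NARS2: ggacgcgggATGctg
IARS1: agcaacaaaATGctt
NARS1: actgcaggcATGgtg
LARS1: ggcggtgcaATGgcg
CARS1: ttcccagccATGgca
QARS1: gtctctgcaATGgcg
All 8 have a purine 3 bases before the start. PARS2, WARS2, NARS1, LARS1, CARS1 and QARS1 also have G directly after it. None of the 8 genes was called, and a link between the context of the start and the change was not tested.

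Other genes of tRNA charging and delivery were mostly not called either. Of 116 genes in 6 lists, 110 were in the authors' deposited table outside the family, and 3 were called, 1 higher and 2 lower, with a median change of −0.05. The share of calls over all rows is 2.2%, so this count is close to the background. Of the 3 measured members of the 7 listed for tRNA delivery, EEF2, the factor that moves the ribosome along the message, rose by 0.41 on the log2 scale (1.33-fold, adjusted p = 0.0014) per the authors' deposited table. Of 6 genes in the response to uncharged tRNA, ATF4 and DDIT3 fell and the other four were not called per the authors' deposited table. ATF4 fell by 1.73 on the log2 scale (3.32-fold lower, adjusted p = 2.0e-14), from a derived control level of 0.75 to −0.98 in the knockdown, per the authors' deposited table. DDIT3, a transcription factor downstream of ATF4, fell by 1.22 (2.33-fold lower, adjusted p = 0.0074) per the authors' deposited table. The sensor kinase EIF2AK4 was at 0.41 (adjusted p = 0.798) and its activator GCN1 at −0.24 (adjusted p = 0.904) per the authors' deposited table.

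Against the same background of 2.2%, lists without a called gene in the authors' deposited table were tRNA maturation (0 of 24, median change 0.01), the free-standing editing and related charging enzymes (0 of 9, median 0.05), mitochondrial translation factors (0 of 13 measured of 14, median −0.11) and tRNA modification (0 of 55 measured of 56, median −0.08). At an unadjusted p under 0.05 these lists held 1, 0, 0 and 5 genes per the authors' deposited table, against 10.3% of all rows; the 5 of 55 are 9.09%. Of the 13 mitochondrial translation factors 6 lay above 0 and 7 below.

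**Figure D5:**
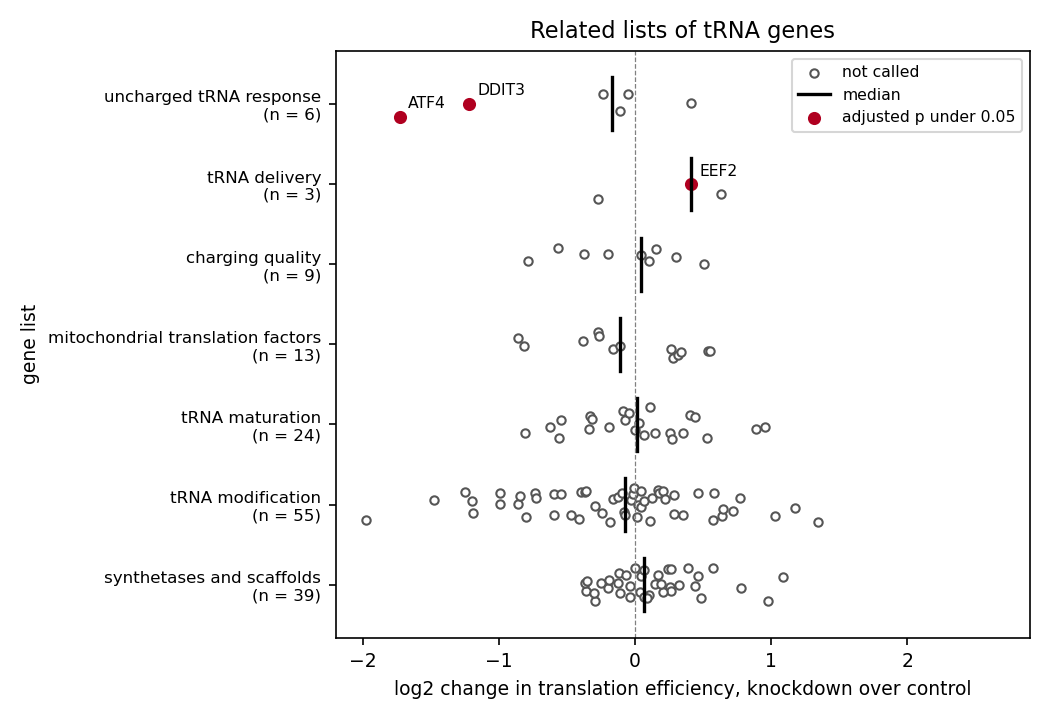
Log2 change in efficiency of every measured gene in the family and in 6 related lists (points; vertical jitter has no meaning; black bars are medians; EEF1E1 is in the tRNA delivery list). Filled red points passed an adjusted p of 0.05: ATF4, DDIT3 and EEF2, and none in the family.

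As for the cells, 8 of 12 stellate cell markers had a row in the authors' deposited table, among them COL1A1, COL1A2, COL3A1, ACTA2 and PDGFRB, while DES, LRAT, NGFR and GFAP had none. Of 18 markers of hepatocytes, endothelium, leukocytes and bile ducts 7 had a row, namely APOA1, SERPINA1, CD14, CD68, KRT7, KRT19 and VWF. Among those without a row were the hepatocyte marker ALB and the leukocyte marker PTPRC. A row shows only that a transcript was kept in the comparison, and abundance, including that of LARP6, was not analysed here.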

How the data were processed

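Human hepatic stellate cells with control or LARP6 silencing RNA were measured by RNA-seq and ribosome profiling (8 libraries in 4 groups of 2). Tools named in the submitters' processing notes are cutadapt and Bowtie, with the builds hg38 and GRCh38, but no version, role or order. The sources used here do not give the footprint sizes, strand handling, treatment of multi-mapping reads or the program behind the comparison. Deposited per the file headers were a log2 change in translation efficiency from each of 2 methods and a final one, the log2 efficiency of the knockdown, and p-values. In all 12109 rows the final p-value and log2 change deposited by the authors are those of whichever method had the larger p (relative tolerance 1e-09). Adjusting that p over all rows by Benjamini-Hochberg gave the deposited adjusted p-value to within 6.3e-15. Members had the same sign by both methods in 39 of 39 cases, with log2 changes at most 0.066 apart. Both methods read the same libraries, so this is no independent check.

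Control levels were derived as the knockdown log2 level minus the second method's log2 change. Because there are no values per library, no test was run here, and calls are the authors' adjusted p under 0.05. Rows were matched to GENCODE 29 by the last 6 digits of the transcript identifier (11590 rows). Promoters and gene coordinates came from RefSeq (GRCh38.p14). Scripts used Python 3.11.15, pandas and numpy, and the adjustment and motif search were tested on simulated data. Genes given in full were members with an unadjusted p under 0.05, the 4 highest and 4 lowest changes, GARS1, KARS1 and enzymes paired by amino acid. Values of 2 of the 39 genes are not reported singly here, but both are in every count and median. Related genes were those called, EEF1E1 and ATF4; EIF2AK4, GCN1 and the other genes given with single values were added after their values were seen. The members and lists were chosen with earlier results of these data known.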

Additional observations from a re-analysis of the deposited data

How the results depend on the processing

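No paired analysis was possible because values of single libraries are not part of the authors' deposited table; leaving out replicates, other normalizations, filters and pseudocounts could not be run for the same reason, and depth is unknown, so which members were too shallow to be called cannot be said. The count of 0 members called became 2 at an unadjusted p under 0.05 (IARS1 and NARS1) and 1 with the authors' first method alone (IARS1, log2 change 0.48, adjusted p = 0.0386). It was 0 at an adjusted p under 0.01, with at least 2-fold, with the second method alone and with adjustment over rows with a gene name only; the lowest adjusted p of a member under the last 2 was 0.0955 and 0.111. The median changes of the family, of the cytosolic and of the mitochondrial genes moved by less than 0.1 under either method, and so did the cytosolic and mitochondrial medians without GARS1 and KARS1 (mitochondrial 0.145 to 0.245); no sign changed. The 3 calls among related genes were also 3 at an adjusted p under 0.01.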

Other observations

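Synthetases fall into 2 unrelated catalytic folds, class I and class II. In the authors' deposited table the 18 class I genes had a median log2 change of 0.05, with 10 above 0, and the 18 class II genes 0.13, with 13 above 0. The class II genes also had the higher median log2 efficiency in the knockdown, 0.48 against 0.12, in the authors' deposited table. The scaffolds are in neither list. EPRS1, the fused glutamyl and prolyl enzyme, was also left out of both, since the glutamyl enzyme EARS2 is listed in class I and the prolyl enzyme PARS2 in class II. These are descriptions, and the difference was not tested. Coding length, which went with the knockdown level in the family (Spearman correlation −0.72), was not taken into account.

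The leader ahead of the coding sequence had the longer median in cytosolic genes, with overlapping ranges, and the difference was not tested. Its median length was 216 bases (range 19 to 909) in the 21 matched cytosolic transcripts, which include the scaffold AIMP2. In the 18 matched mitochondrial ones it was 73.5 bases (range 3 to 557), and in all protein-coding rows 185 bases. GARS1 and KARS1 are counted in both groups. An ATG upstream of the start stood in 12 of the 21 and 6 of the 18 (57.1% and 33.3%), and in 48.9% of protein-coding rows. The leaders are those of the annotated transcripts, and the starts used in these cells were not measured.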
